A study of Mus musculus with 24 samples.

Results

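The 93 genes described here are the protein-coding genes of mouse chromosome 7 whose symbols are Zfp followed by a number, taken from the RefSeq annotation of GRCm38.p6 (mm10). They are 93 of 20665 protein-coding genes on chromosomes 1 to 19, and 93 of 388 genes with such symbols. Chromosome 7 thus held 24.0% of these Zfp genes but 9.82% of all the genes, and the next chromosome by number of Zfp genes, chromosome 17, held 46. The genes were chosen by symbol and place alone. A gene counted as carrying a mark if a peak overlapped its body, or the 1000 bp on either side, by at least 1 bp.

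Most Zfp genes encode proteins with tandem C2H2 zinc fingers, each of which folds around a zinc ion and contacts DNA. In mammals many of these proteins also carry a KRAB domain, which recruits the co-repressor Trim28 and, through it, the H3K9 methyltransferase Setdb1 to transposable elements and a few gene targets. Such genes arose by repeated tandem duplication and lie in clusters of similar neighbours. Not every symbol of this form stands for that class: Zfp36 encodes tristetraprolin, an RNA-binding protein with CCCH fingers that promotes decay of messenger RNA.

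Histone marks were mapped by ACT-seq, in which a Tn5 transposase loaded with an antibody cuts and tags DNA where the antibody binds. The KO groups were endothelial cells sorted by flow cytometry from lungs of Dnmt3a knockout mice, which lack a de novo DNA methyltransferase, and the WT groups were the same cells from wild-type mice; yeast nuclei were added to both as a spike-in. There were 24 samples in 8 groups of 3, and 1 peak list per group was used. Of the marks, H3K4me3 labels promoters, H3K27ac labels promoters and enhancers in use, H3K4me1 flanks promoters and labels enhancers, and H3K27me3 is laid down by Polycomb proteins at genes kept silent. The sources used here do not give the promoter or Cre line behind the knockout, the deleted exons, or the age, sex and strain of the animals.

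With 1 list per group there was no spread between replicates, no peak height and no known depth. Every difference between KO and WT below is therefore a difference between a pair of lists, without a test. Intervals are exact Clopper-Pearson intervals at 95%, cover counting error only and treat genes or peaks as independent, although neighbouring Zfp genes share ancestry and at times a peak. The lists differed in length, from 22724 H3K4me3 peaks in KO and 14984 in WT to 44484 H3K27ac peaks in KO and 81112 in WT. H3K4me1 lists held 48458 peaks in KO and 49363 in WT, and H3K27me3 lists held 31022 in KO and 20918 in WT. All 12 endothelial marker genes examined, among them Pecam1 and Cdh5, carried H3K4me3 in KO and in WT, and none of 7 leukocyte markers did in either. Of 7 epithelial markers, 3 in KO and 1 in WT carried H3K4me3, and the same counts held for 7 mesenchymal markers; the part of other cells in the results was not tested.

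Along chromosome 7 the 93 genes fell into 17 groups when gaps of more than 1000000 bp separated them, and 8 groups of at least 3 genes held 81 of them. The genes were 2445 to 456017 bp long with a median of 14935 bp, against 17491 bp over all genes. The 8 clusters ran from Zfp628 to Zfp580 (6 genes), Zfp787 to Zfp772 (10), Zfp551 to Zfp446 (7), Zfp180 to Zfp526 (14), Zfp607b to Zfp36 (9), Zfp84 to Zfp146 (15), Zfp788 to Zfp819 (10) and Zfp553 to Zfp646 (10). The remaining genes stood singly or in pairs. In 23 of the 93 gene windows another protein-coding gene was present, so that a peak there can belong to the neighbour.

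A set of 10 promoters are shown because the results turn on them, namely those of the 5 genes that carried H3K4me3 in KO only, of the 3 genes with the widest shared H3K4me3 peaks in KO among those with a promoter in the table, and of a pair of genes without any peak, which were added after their values were seen. Each is the RefSeq sequence of GRCm38.p6 from 250 bases before to 50 bases after the annotated start, 5′ to 3′ on the strand of the gene, with CG dinucleotides, the sites that DNA methyltransferases modify, in capitals.
H3K4me3 in KO only:
Zfp772 (chr7:7209949-7210248, minus strand): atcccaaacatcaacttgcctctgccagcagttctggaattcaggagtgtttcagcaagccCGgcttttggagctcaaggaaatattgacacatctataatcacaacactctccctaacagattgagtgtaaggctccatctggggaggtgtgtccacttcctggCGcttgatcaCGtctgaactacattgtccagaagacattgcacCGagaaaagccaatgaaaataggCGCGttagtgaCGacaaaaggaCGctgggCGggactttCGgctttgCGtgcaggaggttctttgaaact
Zfp111 (chr7:24208100-24208399, minus strand): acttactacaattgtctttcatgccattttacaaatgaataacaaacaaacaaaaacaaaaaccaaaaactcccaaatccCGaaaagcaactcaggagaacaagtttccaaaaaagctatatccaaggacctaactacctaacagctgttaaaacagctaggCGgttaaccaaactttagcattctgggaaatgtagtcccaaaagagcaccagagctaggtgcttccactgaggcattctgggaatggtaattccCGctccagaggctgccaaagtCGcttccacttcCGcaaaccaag
Zfp93 (chr7:24270168-24270467, plus strand): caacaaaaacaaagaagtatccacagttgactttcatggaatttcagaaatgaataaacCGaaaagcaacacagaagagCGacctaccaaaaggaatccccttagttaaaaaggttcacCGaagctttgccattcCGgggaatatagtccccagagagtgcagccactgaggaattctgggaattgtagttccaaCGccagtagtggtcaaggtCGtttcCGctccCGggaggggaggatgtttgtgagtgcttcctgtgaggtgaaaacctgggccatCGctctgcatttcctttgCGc
Zfp940 (chr7:29853599-29853898, minus strand): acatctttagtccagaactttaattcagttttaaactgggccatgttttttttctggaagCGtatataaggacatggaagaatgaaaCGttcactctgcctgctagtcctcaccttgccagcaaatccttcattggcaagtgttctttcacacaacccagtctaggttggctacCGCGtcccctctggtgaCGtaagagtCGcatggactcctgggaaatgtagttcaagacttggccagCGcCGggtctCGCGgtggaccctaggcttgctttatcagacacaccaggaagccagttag
Zfp14 (chr7:30051347-30051646, minus strand): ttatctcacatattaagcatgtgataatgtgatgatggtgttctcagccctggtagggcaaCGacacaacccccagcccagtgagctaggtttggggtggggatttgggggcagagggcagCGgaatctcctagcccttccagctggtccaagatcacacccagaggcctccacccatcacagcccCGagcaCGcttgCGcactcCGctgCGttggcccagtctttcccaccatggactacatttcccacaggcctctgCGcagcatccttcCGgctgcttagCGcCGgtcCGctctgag
Widest shared H3K4me3 in KO, with a promoter entry:
Zfp668 (chr7:127876787-127877086, minus strand): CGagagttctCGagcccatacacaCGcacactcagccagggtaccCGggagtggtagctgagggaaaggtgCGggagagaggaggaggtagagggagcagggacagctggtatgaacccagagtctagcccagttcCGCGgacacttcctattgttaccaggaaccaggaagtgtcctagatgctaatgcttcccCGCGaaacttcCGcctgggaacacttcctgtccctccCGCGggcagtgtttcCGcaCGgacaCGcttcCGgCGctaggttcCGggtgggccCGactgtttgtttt
Zfp768 (chr7:127345265-127345564, minus strand): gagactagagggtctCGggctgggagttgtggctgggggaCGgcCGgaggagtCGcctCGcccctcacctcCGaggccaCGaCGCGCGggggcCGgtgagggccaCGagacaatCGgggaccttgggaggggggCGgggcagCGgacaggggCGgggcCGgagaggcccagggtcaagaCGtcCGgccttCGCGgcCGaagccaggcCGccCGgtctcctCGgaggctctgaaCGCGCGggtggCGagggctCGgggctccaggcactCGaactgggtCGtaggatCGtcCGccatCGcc
Zfp787 (chr7:6155916-6156215, minus strand): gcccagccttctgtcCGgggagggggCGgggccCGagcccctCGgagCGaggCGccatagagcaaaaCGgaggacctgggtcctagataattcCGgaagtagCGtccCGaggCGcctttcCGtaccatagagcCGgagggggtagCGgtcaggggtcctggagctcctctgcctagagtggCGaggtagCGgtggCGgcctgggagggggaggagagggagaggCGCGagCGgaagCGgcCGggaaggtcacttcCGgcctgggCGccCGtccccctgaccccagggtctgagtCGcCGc
No peak of any mark:
Zfp977 (chr7:42592496-42592795, minus strand): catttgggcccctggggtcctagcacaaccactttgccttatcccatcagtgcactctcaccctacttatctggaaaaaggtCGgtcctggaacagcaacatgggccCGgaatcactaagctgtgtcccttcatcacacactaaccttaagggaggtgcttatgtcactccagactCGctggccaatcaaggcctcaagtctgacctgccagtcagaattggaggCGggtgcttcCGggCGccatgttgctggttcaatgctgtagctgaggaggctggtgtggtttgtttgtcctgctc
Zfp936 (chr7:43177340-43177639, plus strand): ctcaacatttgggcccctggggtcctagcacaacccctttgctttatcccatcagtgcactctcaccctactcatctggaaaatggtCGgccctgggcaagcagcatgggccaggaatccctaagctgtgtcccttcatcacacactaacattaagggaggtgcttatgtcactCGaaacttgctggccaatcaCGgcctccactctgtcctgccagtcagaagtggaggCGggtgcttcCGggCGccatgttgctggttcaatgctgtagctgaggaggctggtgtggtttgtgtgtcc

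These stretches hold 11 (Zfp772), 5 (Zfp111), 10 (Zfp93), 10 (Zfp940) and 12 (Zfp14) CG dinucleotides in the first set. The second set holds 19 (Zfp668), 35 (Zfp768) and 27 (Zfp787). The promoters of Zfp977 and Zfp936 hold 6 each and are near copies: 37.9% of the 16-base words of one also occur in the other, and each was the other's closest match among all promoters in the table.

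H3K4me3 was the most widespread mark over the Zfp genes in KO and lay mostly at their starts. It lay over 84 of 93 Zfp genes in KO (90.3%) and 79 in WT (84.9%), against 60.0% and 52.8% of all protein-coding genes. All 79 genes with the mark in WT also had it in KO. Of the 84 genes with it in either genotype, 5 had it in KO only, which is 5.95% (1.96 to 13.35), against a background of 13.8% over all genes. Over lists trimmed to equal length by width, 3 of 82 had it in KO only (3.66%): Zfp772, Zfp14 and Zfp111. The share over all genes was not computed for trimmed lists. Over the full lists none of the Zfp genes had it in WT only (0 of 84, interval 0 to 4.30%), against 2.06% over all genes. Over gene windows of the full lists, the KO-only share among the Zfp genes was thus below that of all genes. The same held for 295 Zfp genes on other chromosomes, with 15 in KO only (6.10%) and 2 in WT only. At annotated starts, given below, the interval for the chromosome 7 Zfp genes includes the share over all genes.

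The 5 genes with H3K4me3 in KO only were Zfp772, Zfp14, Zfp111, Zfp93 and Zfp940. In KO the peak of Zfp772 was 722 bp wide (7209412 to 7210133), that of Zfp14 313 bp (30051193 to 30051505) and that of Zfp111 263 bp (24208005 to 24208267). The peaks of Zfp93 and Zfp940 were 131 and 119 bp wide in KO. Each of the 5 peaks covered the annotated start whose sequence is printed above. The median width of the 5 was 263 bp, against 769 bp in KO for the 79 genes with the mark in both genotypes.

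These genes differed in what else they carried. Zfp772 had H3K27ac at its start in both genotypes, 441 bp wide in KO and 622 bp in WT, so that H3K4me3 alone set the lists apart there. Zfp14 had 117 bp of H3K27ac in KO and 573 bp in WT, and 122 bp of H3K4me1 in WT only. Zfp940 had 262 bp of H3K27ac in KO and 287 bp in WT, and 179 bp of H3K4me1 in WT only. Zfp93 carried H3K4me3 but no H3K27ac in KO, and 390 bp of H3K27ac but no H3K4me3 in WT. Zfp111 was the one Zfp gene here with peaks in KO and none of any mark in WT: 263 bp of H3K4me3 and 112 bp of H3K27ac at the same start. Zfp111 and Zfp93 lie in the same cluster, and Zfp14 and Zfp940 in another.

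**Figure D1:**
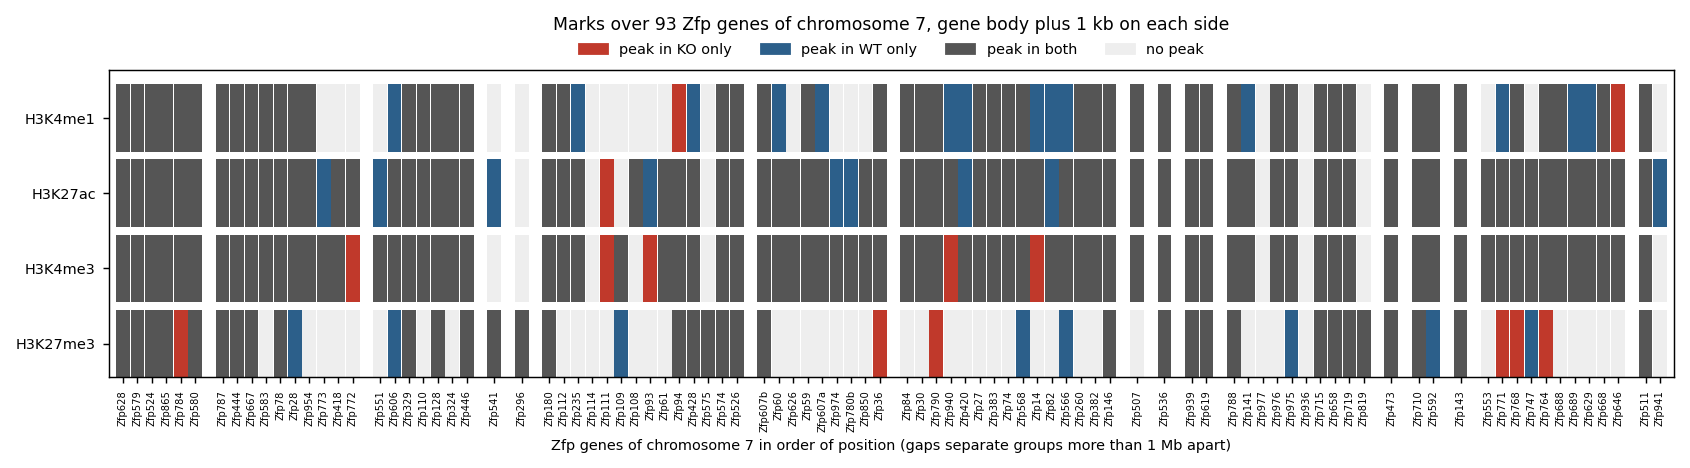
Presence of each mark over the 93 Zfp genes of chromosome 7 in order of position, with gaps between groups more than 1 Mb apart. Red marks a peak in KO only, blue in WT only, dark grey in both and light grey in neither; the H3K4me3 row shows 5 red and 0 blue genes, and the H3K4me1 row 2 red and 14 blue.

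The Zfp genes usually carried a single H3K4me3 peak. Exactly 1 peak was found over 71 of 84 marked genes in KO (84.5%) and 67 of 79 in WT (84.8%), against 65.9% and 74.0% over all genes. Among genes between the quartiles of their length, 9083 to 21488 bp, it was 40 of 44 in KO and 33 of 40 in WT. Other genes of that length gave 2126 of 2870 in KO and 2029 of 2508 in WT. Zfp genes of other chromosomes, of any length, gave 182 of 244 in KO and 186 of 231 in WT. At the annotated start lay 75.5% of the H3K4me3 peaks over the chromosome 7 Zfp genes in KO and 85.9% in WT. Over all genes 61.4% of such peaks in KO and 73.3% in WT did. The far end of the Zfp genes held 4.90% in KO and 3.53% in WT. With the large genes Zfp536 and Zfp710 left out, a choice made after seeing the data, the start held 82.4% in KO and 87.8% in WT.

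A start was available for 85 of the 93 genes. H3K4me3 lay within 1000 bp of it for 76 in KO and 69 in WT, with 7 in KO only and 0 in WT only. The KO-only share was 9.21% of starts with the mark in either genotype (3.78 to 18.1), against 11.8% over all genes. This interval includes the share over all genes. In WT only, 1.01% of such starts over all genes had the mark. The added KO-only starts were those of Zfp536 and Zfp764, which have H3K4me3 elsewhere in the gene in WT. At the 69 starts with the mark in both genotypes the summed peak width was larger in KO at 47 and in WT at 22. The median ratio of KO over WT was 1.08, with a range of 0.328 to 4.65, against a median of 1.18 over the other protein-coding genes.

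The ends of that range show how single genes varied. At the start of Zfp329, H3K4me3 was 721 bp wide in KO and 155 bp in WT. Zfp579 had 707 bp in KO and 166 bp in WT. In the other direction, Zfp128 had 262 bp in KO and 799 bp in WT, and Zfp607b had 559 bp in KO and 1057 bp in WT. Of the 69 starts, 14 were at least 1.5-fold wider in KO and 3 at least 1.5-fold wider in WT.

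**Figure D2:**
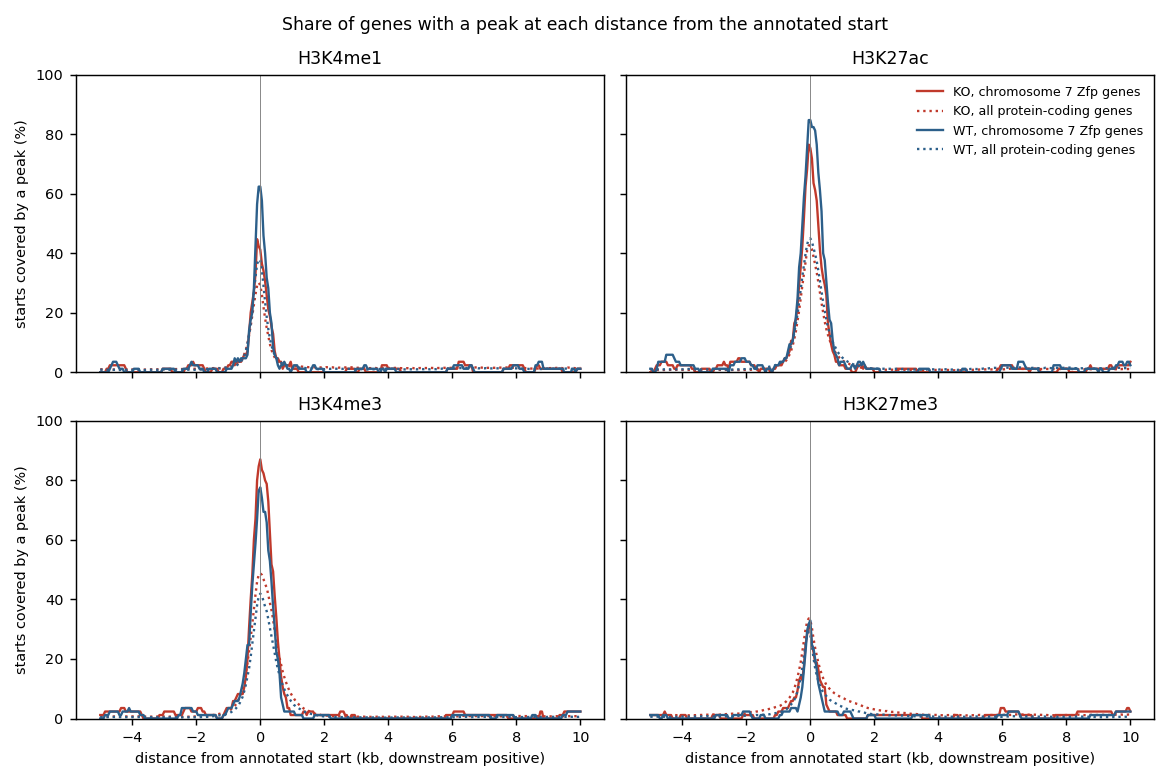
Share of annotated starts covered by a peak (%) at each distance from the start (kb, downstream positive), for KO (red) and WT (blue), for 85 Zfp genes of chromosome 7 (solid) and 16457 protein-coding genes (dotted). At the start H3K4me3 covers 87.1% of Zfp genes in KO and 77.6% in WT, against 48.8% and 41.9% of all genes, and H3K4me1 peaks at 44.7% of Zfp genes in KO and 62.4% in WT.

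The widest H3K4me3 peaks were shared. In KO the widest spanned 127875388 to 127877194 (1807 bp), at the start of Zfp668 and over the low-coordinate end of Zfp646, and was matched in WT by 2 peaks with 1215 bp in sum. Zfp524 had 1586 bp in KO and a widest peak of 796 bp in WT. Zfp768 had 1324 bp in KO and 1293 bp in WT, Zfp787 had 1294 bp in KO and 1493 bp in WT, and Zfp788 had 1277 bp in KO and 1256 bp in WT. Zfp592 and Zfp511 completed the 5 widest in WT, with 1088 and 968 bp in KO and 1172 and 1129 bp in WT.

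H3K4me1 showed the largest count in 1 direction, and it lay toward WT. It was found over 56 Zfp genes in KO (60.2%) and 68 in WT (73.1%), against 52.9% and 58.5% of all genes. Of 70 genes with the mark in either genotype, 14 had it in WT only (20%, 11.4 to 31.3), against a background of 12.7%, and 2 in KO only (2.86%), against 3.53%. The interval of the WT-only share includes the background. Zfp genes of other chromosomes gave 44 in WT only, which is 20.6% of those with the mark, and 3 in KO only.

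The 14 WT-only H3K4me1 peaks were mostly narrow and sat on starts that kept other marks in KO. Zfp689 had the widest, 694 bp (127448618 to 127449311) in WT, over a start with 668 bp of H3K4me3 in KO and 795 bp in WT. Zfp428 followed with 528 bp, Zfp60 with 372 bp, Zfp235 with 322 bp, Zfp606 with 281 bp and Zfp607a with 252 bp. Zfp629, Zfp420, Zfp82, Zfp940, Zfp771 and Zfp14 had 230, 212, 203, 179, 161 and 122 bp in WT, and Zfp566 and Zfp141 had 111 and 106 bp. The median was 221 bp, against 493 bp in WT for the 54 genes with the mark in both genotypes. All 14 overlapped an H3K4me3 peak of KO, 12 an H3K27ac peak of KO, and 11 covered the annotated start.

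At starts alone the count was larger. H3K4me1 lay within 1000 bp of 43 of 85 starts in KO and 61 in WT, with 1 in KO only and 19 in WT only. The WT-only share was 30.65% of starts with the mark (19.6 to 43.65), against 20.9% over all genes; the KO-only share over all genes was 4.12%. Zfp94 was the single start with H3K4me1 in KO only, with a peak of 612 bp (24316399 to 24317010), while H3K27ac, H3K4me3 and H3K27me3 were present there in both genotypes. The other gene with the mark in KO only, Zfp646, had a peak of 113 bp inside the gene. Where H3K4me1 was present at the start in both genotypes, the median ratio of widths, KO over WT, was 0.994 over 42 starts, with 20 wider in KO and 21 in WT. Over the other protein-coding genes this ratio was 0.965, with 2704 starts wider in KO and 3261 in WT. The widest shared peaks in KO were those of Zfp710 (1279 bp), Zfp788 (1214 bp), Zfp444 (1157 bp), Zfp180 (911 bp) and Zfp787 (885 bp), and those in WT were at Zfp446 (1062 bp), Zfp788 (970 bp), Zfp787 (901 bp), Zfp710 (879 bp) and Zfp78 (855 bp).

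**Figure D3:**
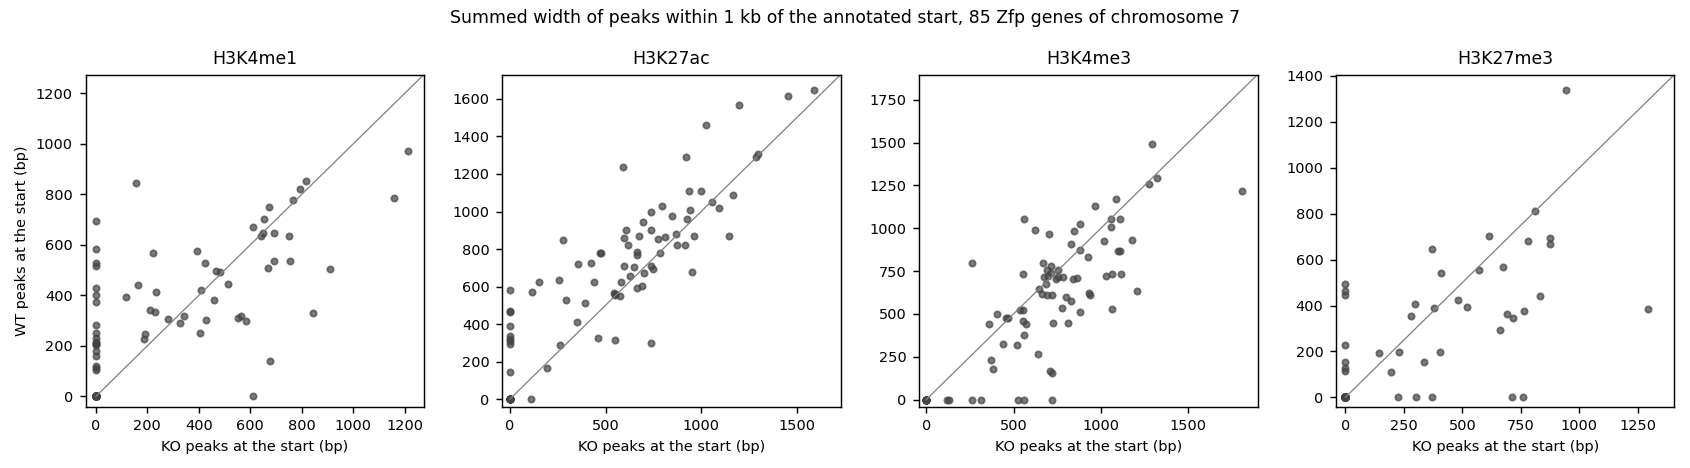
Summed width of peaks within 1 kb of the annotated start (bp) in KO (horizontal axis) and WT (vertical axis) for 85 Zfp genes, 1 panel per mark; points are genes, and the line marks equal width. H3K4me1 shows 19 genes on the vertical axis, with a peak in WT only, and H3K4me3 shows 7 on the horizontal axis and 0 on the vertical one.

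H3K27ac covered most of the genes in both genotypes. It was present over 77 Zfp genes in KO (82.8%) and 85 in WT (91.4%), against 57.8% and 64.7% of all genes. Zfp111 alone of 86 had it in KO only (1.16%, background 2.44%). In WT only it was found at 9 genes (10.5%, 4.90 to 18.9), against a background of 12.9%. The widest of these peaks in WT were at Zfp773 (582 bp), Zfp93 (390 bp), Zfp974 (336 bp), Zfp780b (319 bp), Zfp420 (307 bp) and Zfp551 (294 bp), and those of Zfp941, Zfp82 and Zfp541 were 166, 144 and 135 bp wide. Zfp941 was the reverse of Zfp111, with this peak in WT and none of any mark in KO. Of the 9, 7 overlapped H3K4me3 of KO. Zfp genes of other chromosomes had H3K27ac in WT only at 10 of 247 genes with the mark (4.05%, 1.96 to 7.32) and in KO only at 5. At starts the WT-only share was 12% of 75 for the chromosome 7 Zfp genes (5.64 to 21.6). It was 3.33% of 180 for Zfp genes of other chromosomes (1.23 to 7.11) and 8.76% over all genes.

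At the 65 starts with H3K27ac in both genotypes the marked width was larger in KO at 19 and in WT at 46, with a median ratio of 0.913. The same ratio over other genes was 0.915. Zfp14 and Zfp688 lay lowest, with 117 and 153 bp in KO and 573 and 624 bp in WT. Zfp850 lay highest, with 740 bp in KO and 301 bp in WT. The widest H3K27ac peak was that of Zfp524, 1655 bp in KO and 1786 bp in WT. Next in both lists came the peak shared by Zfp668 and Zfp646, 1592 bp in KO and 1648 bp in WT, and that of Zfp787, 1453 bp in KO and 1618 bp in WT. Zfp788 followed in KO, with 1299 bp there and 1304 bp in WT. In WT the next was Zfp583, with 2 peaks of 1199 bp in sum in KO and 1 of 1566 bp in WT, and then Zfp768, with 1026 bp in KO and 1462 bp in WT.

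H3K27me3 was the least frequent of the 4 marks over the Zfp genes in both genotypes. It was found over 40 Zfp genes in KO (43.0%, 32.8 to 53.7) and 42 in WT (45.2%, 34.8 to 55.8), against 50.6% and 45.5% of all genes. Of these genes 34 had it in both genotypes, counted over the whole gene window. For Zfp329 and Zfp541 the KO and WT peaks did not overlap. Zfp329 had 196 bp at its far end in KO (12803569 to 12803764) and 462 bp at its start in WT (12818635 to 12819096). Of 48 genes with the mark in either genotype, 6 had it in KO only (12.5%, 4.73 to 25.3), against a background of 16.5%, and 8 in WT only (16.7%, 7.48 to 30.2), against 7.1%. The order of these counts depended on the lists. Over lists trimmed to equal length by width it was 5 in KO only and 14 in WT only, of 47 genes with the mark. With peaks under 200 bp left out it was 8 and 5, of 42. The share over all genes was not computed for these changed lists. Over the full lists, Zfp genes on other chromosomes gave 20 in KO only and 16 in WT only.

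The genes with H3K27me3 in KO only were Zfp36 (757 bp), Zfp768 (710 bp), Zfp764 (625 bp), Zfp784 (372 bp), Zfp790 (300 bp) and Zfp771 (225 bp). Counted over the whole gene window, all 6 carried H3K4me3 and H3K27ac in KO and in WT. The windows of Zfp784 and Zfp790 held 1 other protein-coding gene each, and that of Zfp764 held 2. The KO peak of Zfp764 (127393271 to 127393895) lay inside the gene, away from its start at 127406822. Within 1000 bp of that start no H3K27me3 was found in either genotype. H3K4me3 there was 560 bp wide in KO and 0 bp in WT, and H3K27ac 0 bp in KO and 469 bp in WT. The KO peak of Zfp36 ran from 28378954 to 28379710 over its start, where H3K4me3 was 781 bp wide in KO and 717 bp in WT. Of the 6, Zfp768, Zfp764 and Zfp771 lie in the cluster from Zfp553 to Zfp646.

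In WT only H3K27me3 was found at Zfp109 (599 bp), Zfp606 (495 bp), Zfp975 (446 bp), Zfp592 (228 bp), Zfp568 (183 bp), Zfp28 (152 bp), Zfp566 (128 bp) and Zfp747 (114 bp). Zfp568 encodes a KRAB protein known in mouse embryos as a repressor of a placental Igf2 transcript. All 8 carried H3K4me3 in both genotypes. Their median H3K27me3 width was 205.5 bp in WT, against 452 bp in WT for the 34 genes with the mark in both.

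Combining H3K4me3 and H3K27me3, 48 Zfp genes in KO (51.6%) and 41 in WT (44.1%) had H3K4me3 without H3K27me3, against 21.4% and 21.2% of all genes. Both marks were found at 36 in KO (38.7%) and 38 in WT (40.9%, 30.8 to 51.5), against 38.6% and 31.7%. For both marks the KO share was thus that of all genes, and the WT interval includes it. H3K27me3 without H3K4me3 was found at 4 genes in KO and 4 in WT (4.30% each), against 12.0% and 13.8% of all genes. Neither mark was found at 5 in KO (5.38%) and 10 in WT (10.8%), against 28.0% and 33.4%. Among genes with H3K4me3 in both genotypes, H3K27me3 was present at 45.6% of the Zfp genes in KO and 48.1% in WT, against 64.9% and 60.1% of all genes. H3K4me1 was present at 70.9% of those Zfp genes in KO and 83.5% in WT, against 83.4% and 91.4% of all genes. Zfp genes of other chromosomes with H3K4me3 in both genotypes carried H3K4me1 at 69.4% in KO and 84.3% in WT. They carried H3K27me3 at 56.3% in KO and 55.5% in WT. In bulk peak lists, 2 marks over one gene can come from different cells or alleles.

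There were 4 genes with H3K27me3 and no H3K4me3 in either genotype. Zfp575 had the widest Polycomb-marked stretch of all the Zfp genes, 3503 bp in KO (24584232 to 24587734) and 2676 bp in WT (24584836 to 24587511), which covered most of the gene. Zfp296 had 941 bp in KO and 1339 bp in WT at its start, and Zfp819 had 1292 bp in KO and 386 bp in WT. Zfp541, which acts in male meiosis, had H3K27me3 at different places: 1582 bp at 16060336 to 16061917 in KO, at the upstream edge of the gene, and 442 bp at 16068848 to 16069289 in WT. Zfp296, Zfp575 and Zfp819 carried no other mark. Wide H3K27me3 peaks also lay over genes with H3K4me3: Zfp524 had 1419 bp in KO and 1070 bp in WT, and Zfp78 had 811 bp in each. The widest peaks counted for Zfp580 were 1712 bp in KO (5053318 to 5055029) and 578 bp in WT (5054692 to 5055269). The KO peak crossed the far end of the gene at 5053723 and the WT peak lay beyond it. That window held 2 other protein-coding genes. Within 1000 bp of the Zfp580 start, H3K27me3 was 405 bp wide in KO and 197 bp in WT.

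Counted over gene windows, 57 of the 93 genes had the same combination of the 4 marks in KO and WT, and 28 had all 4 in both. The like counts were not made over all genes, so these have no background beside them. In these counts KO and WT peaks need not overlap, as for H3K27me3 over Zfp329, which is among the 28. Among the 28 were Zfp143, which encodes a promoter-binding activator, and Zfp473, whose protein takes part in 3′ end processing of histone messenger RNA. At the start of Zfp143, H3K4me3 was 1061 bp wide in KO and 1055 bp in WT, H3K27ac 1285 bp in KO and 1290 bp in WT, and H3K27me3 876 bp in KO and 666 bp in WT. Another 17 genes, Zfp110 and Zfp260 among them, had all but H3K27me3 in both. No peak of any mark was found over Zfp114, Zfp977 and Zfp936, the last of which spans 43114166 to 43192109.

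The clusters differed in which marks their genes carried. The cluster from Zfp84 to Zfp146 packs 15 Zfp genes into 403 kb with no other protein-coding gene between them. H3K4me3 was present at 15 of its genes in KO and 13 in WT, and H3K27ac at 13 in KO and 15 in WT. H3K4me1 was present at 10 in KO and at all 15 in WT; the 5 that differed were Zfp940, Zfp420, Zfp14, Zfp82 and Zfp566. H3K27me3 was nearly absent, at 2 genes in KO and 3 in WT, with 494 bp over the whole span in KO and 423 bp in WT.

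The cluster from Zfp628 to Zfp580 was the opposite for H3K27me3, with the mark at 6 of 6 genes in KO and 5 of 6 in WT. H3K27me3 covered 6.76% of its span in KO and 3.06% in WT. All 6 genes carried the other 3 marks in both genotypes, counted over the whole gene window. At the starts of Zfp628 and Zfp580, however, H3K4me1 was found in WT only, with 585 and 515 bp. The only H3K4me1 peak of KO counted for Zfp580 lay over the start of its neighbour Zfp784. Over whole gene windows, all 10 genes of the cluster from Zfp553 to Zfp646 carried H3K4me3 and H3K27ac in both genotypes. H3K27me3 was found at 3 of them in KO and 1 in WT, and none of these genes had it in both.

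In the cluster from Zfp180 to Zfp526, H3K4me3 was present at 11 of 14 genes in KO and 9 in WT. H3K4me1 was sparse there, at 5 genes in KO and 6 in WT. The cluster from Zfp607b to Zfp36 was likewise poor in H3K4me1, at 3 of 9 genes in KO and 5 in WT, although all 9 carried H3K4me3 in both genotypes. In the cluster from Zfp788 to Zfp819, which spreads over 1987 kb with 24 other genes, 7 of 10 genes carried H3K4me3 in KO and the same number in WT. It holds 2 of the 3 genes without a peak and Zfp819.

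**Figure D4:**
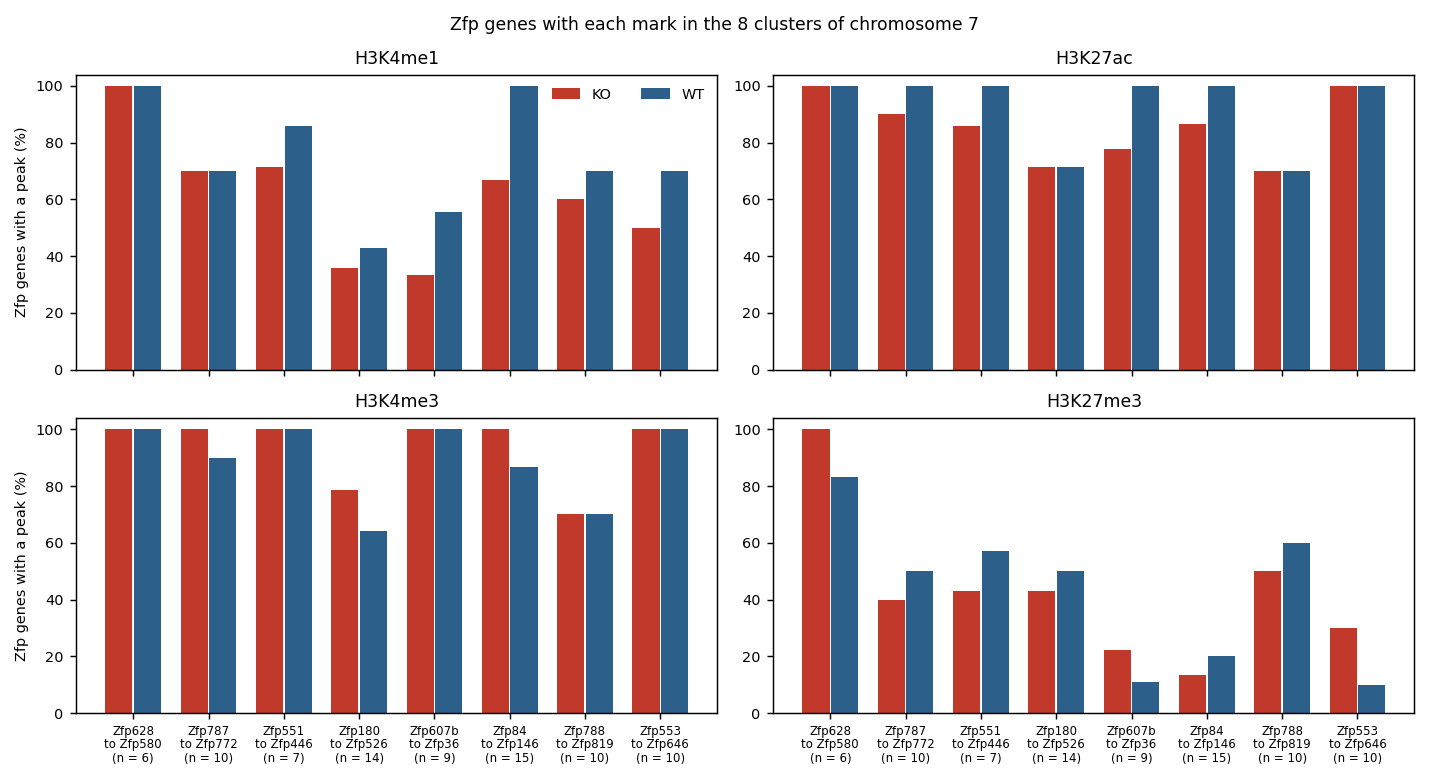
Percentage of Zfp genes with a peak of each mark in the 8 clusters of chromosome 7 with at least 3 Zfp genes, in order of position, KO (red) left of WT (blue), with the number of genes n under each cluster. H3K4me1 reaches 15 of 15 genes in WT and 10 of 15 in KO in the cluster from Zfp84 to Zfp146, where H3K27me3 is present at 2 genes in KO and 3 in WT.

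Over the 6695.7 kb that the 8 clusters span, H3K4me3 covered 1.48% of bases in KO and 1.13% in WT, against 0.567% and 0.387% of the rest of chromosome 7. H3K27ac covered 1.38% in KO and 1.72% in WT, against 0.843% and 1.12%. H3K4me1 went the other way in KO, with 0.837% against 1.055%, and was nearly equal in WT, with 0.877% against 0.886%. In peaks per Mb H3K4me1 gave 17.3 in KO and 21.8 in WT, against 19.8 and 20.4. H3K27me3 covered 1.42% in KO and 0.818% in WT, against 0.959% and 0.518%. The number of genes per base was not matched between the spans and the rest of the chromosome. Much of the H3K27me3 lay outside the Zfp genes: of 136 peaks in the spans in KO, 36 were over Zfp genes, 75 over other genes alone and 25 between genes. In WT the numbers were 36, 63 and 9 of 108 peaks. The H3K27me3 peaks over Zfp genes were therefore equal in number in both genotypes within the clusters, while those elsewhere in the spans were more numerous in the longer KO list.

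Peak by peak, the marks over Zfp genes overlapped between genotypes more often than the lists as a whole, except for H3K4me1 and H3K27me3 of WT. Of 105 H3K4me3 peaks over Zfp genes in KO 79.0% overlapped a WT peak, against 51.6% of the whole KO list, and of 89 in WT 95.5% overlapped a KO peak, against 82.0%. For H3K27ac the shares were 88.2% of 110 in KO and 64.8% of 145 in WT, against 67.5% and 37.0%. H3K4me1 gave 89.9% of 89 in KO and 74.3% of 109 in WT, against 75.7% and 76.5%. H3K27me3 gave 62.9% of 62 in KO and 74.1% of 54 in WT, against 48.6% and 75.1%. The whole lists also hold peaks away from genes, and position was not matched. Over Zfp genes with an annotated start, 69 of 76 H3K4me3 peaks of KO at the start were shared, and 9 of 24 further away. For H3K27ac of WT these counts were 65 of 80 at the start and 24 of 59 further away.

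A pair of large genes outside the clusters held many of the peaks found in 1 genotype, and these were counted by peak. Zfp710 spans 80024814 to 80092751 and had 8 H3K4me3 peaks in KO and 1 in WT. The peak at its start was shared, 932 bp wide in KO and 620 bp in WT. Of the 7 found in KO only, 3 followed the start, at 1504.5, 2417 and 2896 bp downstream by their centres and 382, 387 and 177 bp wide, with no peak of another mark. One of 206 bp, at 15253.5 bp, also lay apart from other marks. Another 3 lay further inside, at 19541.5, 45097.5 and 54241.5 bp, on H3K4me1 and H3K27ac peaks of both genotypes, and the one at 80078805 to 80079306 also lay on H3K27me3 of both. H3K4me1 and H3K27ac were alike in number over Zfp710, with 15 peaks each in KO and 13 each in WT.

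Zfp536, the longest of the genes at 456017 bp, encodes a zinc finger protein known as a brake on neuronal differentiation. H3K27me3 formed 18 peaks over it in KO and 9 in WT, with 11364 bp in sum in KO and 4380 bp in WT; 12 were found in KO only and 3 in WT only. H3K27ac went the other way, with 5 peaks in KO and 20 in WT, of which 18 in WT did not overlap a KO peak; the median width of the 20 was 184 bp. Upstream of its annotated start, KO had an H3K4me3 peak from 37770330 to 37770854 that lay on H3K27me3 of both genotypes. The widest H3K27me3 peak inside the gene was shared, 2500 bp in KO and 2123 bp in WT. These differences run the same way as the lengths of the lists, and their dependence on depth was not tested.

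**Figure D5:**
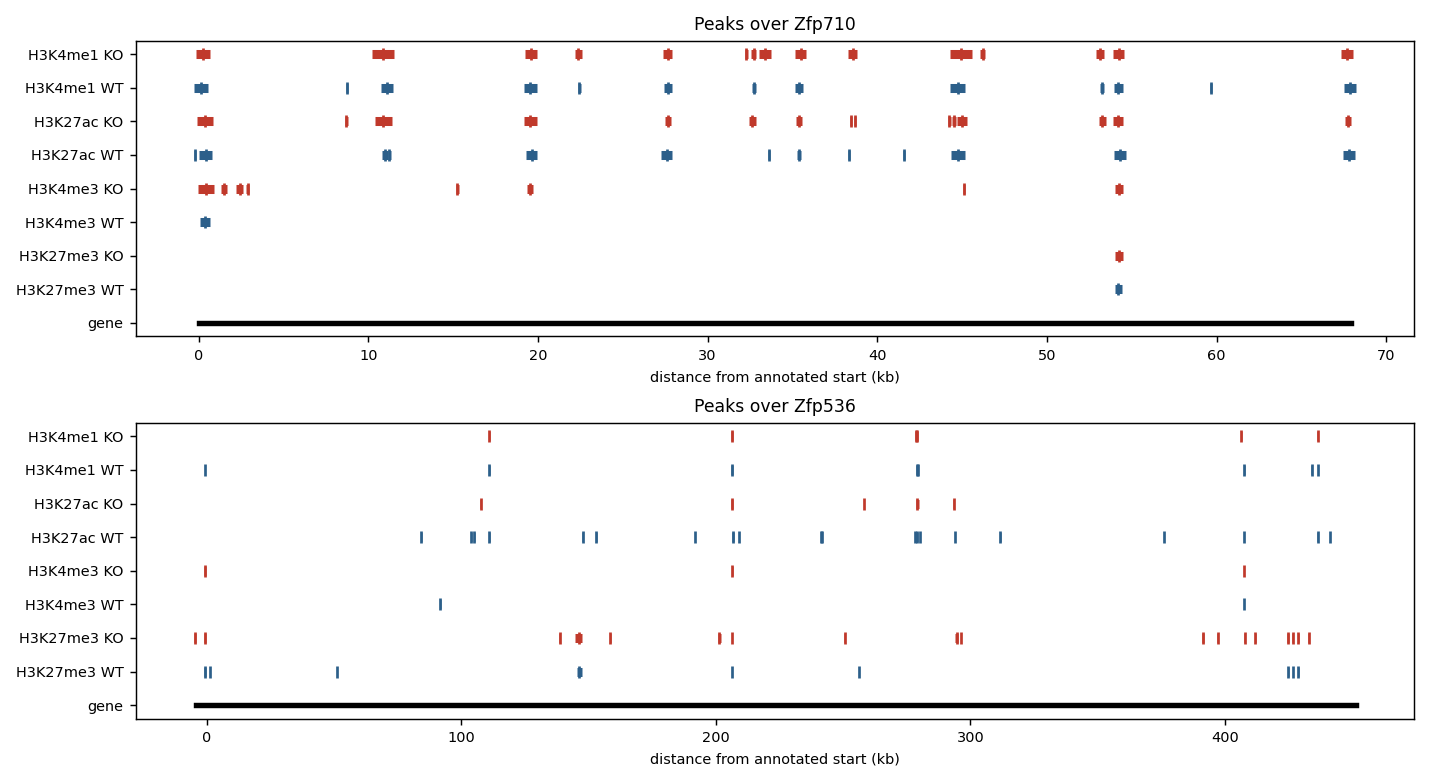
Peaks of each mark over Zfp710 (top) and Zfp536 (bottom) by distance from the annotated start (kb), KO rows in red above WT rows in blue; the black bar is the gene, and each peak is drawn with a minimum line width to stay visible. H3K4me3 shows 8 peaks over Zfp710 in KO and 1 in WT, and H3K27me3 shows 18 over Zfp536 in KO and 9 in WT.

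CG content of the promoters went with H3K4me3 among the Zfp genes as it did among all genes. The median was 16 CG dinucleotides in 300 bases for 73 Zfp genes with H3K4me3 in both genotypes, 10 for the 5 with it in KO only and 6 for 7 with none. Over all genes these medians were 22, 14 and 3. The Zfp promoters as a whole had a median of 14 with quartiles of 8 and 19, against 14 with quartiles of 4 and 25 over all genes, so that they were concentrated at intermediate values. Promoters of Zfp genes with H3K27me3 in both genotypes had a median of 19 (29 genes), and those without it 11 (43 genes). Over all genes these medians were 21 and 5, so the contrast was not particular to the Zfp genes. The promoters with the most CG were those of Zfp592 with 42, Zfp768 with 35 and Zfp511 with 33, all 3 with H3K4me3 in both genotypes, as shown for Zfp768 above. Zfp235 and Zfp27 had 1 CG dinucleotide each at the annotated start, and their H3K4me3 lay downstream of it in both genotypes. For Zfp27 the gap from the start to the peak was 93 bp in KO and 133 bp in WT, and for Zfp235 it was 1474 bp in KO and 1654 bp in WT. The CG medians by mark count it over the whole gene window, and a used start can differ from the annotated one.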

How the data were processed

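The values analysed were the authors' deposited peak lists, 1 per genotype and mark, with the chromosome, first and last base and width in bp of each peak; these deposited values (unit class other: base positions and widths) were not rescaled. Per the submitters' processing notes, the tools were MACS2 2.1.2.1, Bowtie2 2.2.6, Trim Galore 0.4.4, cutadapt 1.14, deepTools 3.1.1 and SAMtools, and the builds mm10 and, for yeast, R64. Thresholds, scaling and any pooling of the 3 samples per group were not given in the sources used here. The protocol also lists an H3K9me3 antibody, and that mark was not analysed here. Widths therefore depend on depth and on the peak caller as well as on the mark, and the depth of each sample is unknown.

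Lists were compared with pandas 2.3.3, numpy 2.4.6 and scipy 1.17.1 under Python 3.11.15, and figures made with matplotlib 3.10.9. Marks were assigned to the gene body plus 1000 bp on each side by an overlap of at least 1 bp, and peaks of one mark that overlapped between genotypes by as much were called shared. Starts came from the RefSeq promoter table (GRCm38.p6), which matched 85 of the 93 genes; the 5′-most was used where there were several. "At the start" means within 1000 bp. The overlap step was checked on simulated peaks with a known answer.

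Every Zfp gene of chromosome 7 could be named. Given with values were up to 12 genes per mark and direction with the mark in 1 genotype only, the 5 genes with the widest shared peaks in each list, and the genes whose H3K4me3 and H3K27me3 differed; others were chosen after their values were seen, as were Zfp710, Zfp536, the extremes of width ratio and CG content, and the promoters of Zfp977 and Zfp936. The genes and lists were chosen with earlier results of these data known. The planned search for finger and KRAB patterns in proteins was not run, because no protein table was used here.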

Additional observations from a re-analysis of the deposited data

How the results depend on the processing

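Across 17 results, 106 values were computed under alternative settings, and 99 of them stayed within the interval of the main value or, for the number of clusters, within 1.5 times of it. The other 7 were as follows. With peaks under 200 bp left out, the share of genes with H3K27ac in KO only was 0% (0 of 81), the shared share of H3K27ac peaks of WT was 80.7% and that of H3K4me1 peaks of KO was 80.8%. With lists trimmed to equal length by width, the shared share was 81.8% for H3K27ac of WT and 87.1% for H3K4me3 of KO. Without Zfp536 and Zfp710, a setting chosen after seeing the data, the H3K27ac share of WT was 73.2%. In windows without another protein-coding gene, the share of genes with H3K4me1 in KO only was 0% (0 of 51). No Zfp gene had H3K4me3 in WT only under any setting tried. Counts in 1 genotype rest on few genes and, often, on peaks of 100 to 300 bp, and the lists differ in length between genotypes, which was examined by trimming to equal length alone. No paired analysis was possible because the lists hold no values per sample, and for the same reason leaving out replicates was not run.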

Other observations

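Genes of the co-repressor machinery that KRAB zinc finger proteins use carried H3K4me3 in both genotypes, and many also carried H3K27me3. The list includes Dnmt3a, the gene knocked out, and Zfp57, itself a Zfp gene of chromosome 17. Of 22 genes listed, 21 were analysed, and all 21 carried H3K4me3 in KO and in WT, against 60.0% and 52.8% of all genes. H3K27ac was found at 20 in KO and 21 in WT, the difference being Setdb1, the H3K9 methyltransferase. H3K4me1 was found at 17 in KO and 19 in WT, with Cbx1, an HP1 protein, and Trim33 in WT only. H3K27me3 was found at 16 of the 21 in KO and 12 in WT, where 50.6% and 45.5% of all genes had it. Chd3, Cbx1, Uhrf1, Suv39h2 and Setdb1 had it in KO only and Trim33 in WT only. That is 5 and 1 of 17 genes with the mark in either genotype, where over all genes 16.5% had it in KO only and 7.1% in WT only.

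Some short motifs differed in frequency between the 85 Zfp promoters and all 16457 promoters of the same length, searched on both strands. The core of the sequence bound by human ZNF143, whose mouse counterpart Zfp143 is itself among the 93 genes, was searched without mismatches and was present in 4.71% of the Zfp promoters and 0.468% of all. The 4 genes were Zfp128, Zfp180, Zfp108 and Zfp93, of which Zfp93, printed in the report, had H3K4me3 in KO only, Zfp128 and Zfp180 had it in both genotypes, and Zfp108 had none, with H3K27ac of 194 bp in KO and 167 bp in WT. Since Zfp180, Zfp108 and Zfp93 lie in one cluster, they are not independent counts. CGGAAG, the core bound by ETS factors, was present in 35.3% of the Zfp promoters and 21.9% of all, and TATAAA in 5.88% and 13.5%. Zfp promoters of other chromosomes were close to those of chromosome 7 in both, with CGGAAG in 36.7% and TATAAA in 6.25%, and held the ZNF143 core in 2.08%. A match is a description of the letters and shows no binding.

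Other zinc finger or Peg symbols on chromosome 7, 15 genes in all, carried H3K4me3 at 10 in KO and 8 in WT, with Zik1 and Zkscan2 in KO only, which is 2 of 10 genes with the mark against 13.8% over all genes.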
